A study of Mus musculus with 65 samples.

Results

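The study identifies p0-1 progenitors, the p0 and p1 types together, by PAX6 without NKX6.1. Motor neuron progenitors (pMN) were compared with these p0-1 progenitors on days 5 and 6 of the differentiation of mouse embryonic stem cells into spinal cord progenitors. All libraries labelled pMN or p0-1 on these days were taken, which gave 23 of the 65 libraries of the study, 11 of pMN and 12 of p0-1. HM1 cells, an embryonic stem cell line grown on fibroblast feeders, passed through neuromesodermal progenitors on day 3. From then on they received retinoic acid together with SAG, an agonist of Smoothened that stands in for Sonic hedgehog (Shh). The p0-1 libraries came from cultures with 0 nM SAG (3 libraries on each day) and 10 nM SAG (3 on each day). The pMN libraries came from cultures with 100 nM SAG (3 on each day) and 500 nM SAG (3 on day 5 and 2 on day 6). No SAG concentration gave both types, so cell type and SAG cannot be told apart in this comparison. All cells had been fixed, stained for transcription factors inside the cell and selected for SOX2 before sorting on PAX6, NKX6.1, OLIG2 and NKX2.2. The RNA was bulk RNA, in which fewer cells of a type and less RNA per cell cannot be told apart. Libraries of a group came from independent differentiations of the 1 cell line.

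In the embryonic spinal cord Shh from the notochord and floor plate divides the ventral progenitors into domains that each express their own set of transcription factors and yield their own neurons. The pMN domain expresses Olig2 and yields motor neurons and later oligodendrocytes. The p0 and p1 domains lie further dorsal, see less Shh, and yield V0 and V1 interneurons. Factors of neighbouring domains repress each other, which keeps the boundaries sharp.

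Reads per library ran from 8646849 to 12383601 (median 9693623). Genes with at least 1 read numbered 11493 to 13923 (median 12991) in pMN and 11686 to 13833 (median 12632) in p0-1, so the types overlapped in depth and in genes detected. Values are normalised reads, meaning reads divided by a size factor per library. A gene was called where limma on log2(value + 1), with day as a term, gave an adjusted p (Benjamini-Hochberg) under 0.01 and the fitted fold exceeded 2. Every log2 change is pMN minus p0-1 on that scale, on which changes of weakly expressed genes come out too small. The fit called 111 of the 13662 genes tested (0.812%), 75 higher in pMN (0.549%) and 36 lower (0.264%), and 1684 genes had an unadjusted p below 0.05. The counts by list below are to be read against these shares and against 6972 positive changes among all 13662 genes. The median change over all genes tested was 0.01. Among the called genes the median was 3.77 for those higher and -1.71 for those lower. For 27 genes (0.198%) no pMN library overlapped with any p0-1 library, and all 27 were among the called, 20 higher and 7 lower.

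**Figure D1:**
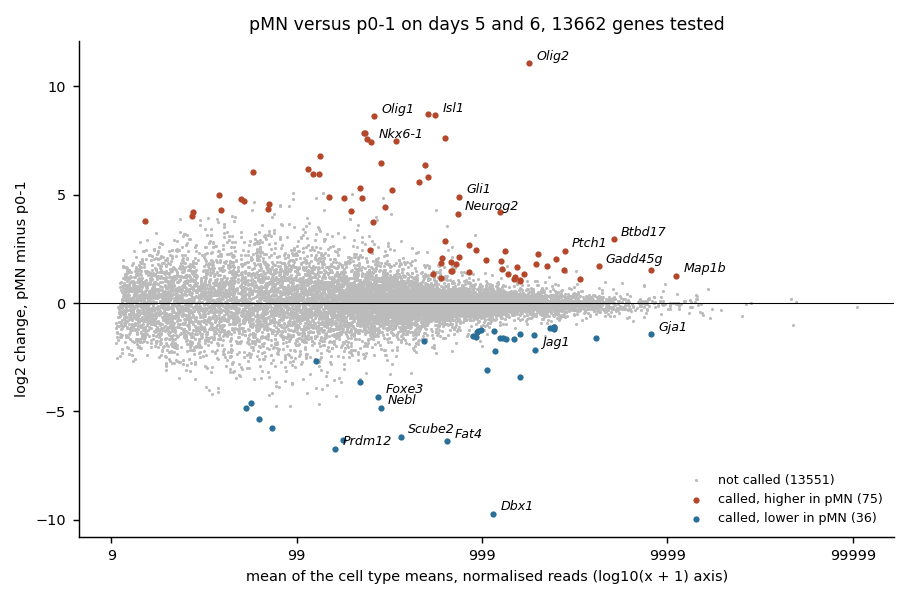
Log2 change (pMN minus p0-1, days 5 and 6) of the 13662 genes tested, against the mean of both cell types in normalised reads on a log10(x + 1) axis. Called genes are coloured, 75 higher and 36 lower in pMN. Olig2 (11.06) and Dbx1 (-9.73) lie at the extremes.

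The genes of the sorting proteins came first, as a check of the labels. Sorting used the proteins of these genes, so their RNA is a description of the gates. Olig2, which specifies motor neuron and oligodendrocyte identity, had 1368 to 6214 (median 3295) normalised reads in the 11 pMN libraries and 0 to 103 (median 0) in the 12 p0-1 libraries (log2 change 11.06, SE 0.71, limma adjusted p = 4.04e-11). Olig2 separated the types fully: 10 of the 12 p0-1 libraries lay at 0, another held 1 read, and replicate 3 at 10 nM SAG on day 5 held 103. Nkx6-1, which is expressed from p2 ventrally, had 252 to 796 (median 468) in pMN and 0 to 67.5 (median 0) in p0-1 (log2 change 7.43, SE 0.81, limma adjusted p = 6.72e-07). All p0-1 libraries with Nkx6-1 reads were from 10 nM SAG. At 0 nM SAG all 6 were at 0. Pax6, a progenitor factor that is strongest outside the most ventral domains, was lower in pMN, with 503 to 2246 (median 1639) against 1989 to 6208 (median 2771) (log2 change -1.19, SE 0.23, limma adjusted p = 0.00241). Sox2, on which both types were selected, had 759 to 2151 (median 1637) in pMN and 975 to 2966 (median 1833) in p0-1 and was not called (log2 change -0.34, limma adjusted p = 0.446). Nkx2-2, the p3 factor, fell below the mean of 10 required for a test, with 0 to 98.1 in pMN (median 3.23) and 0 in every p0-1 library. Olig2 and Nkx6-1 RNA thus separated the 2 types without overlap, while Pax6 and Sox2 RNA was present in both.

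In the list of pMN and shared ventral progenitor factors 5 of 7 tested genes were called higher and none lower. Of these 5, Olig2 and Nkx6-1 belong to the sorting proteins, which leaves 3 of 5 genes that the gates did not use. Of the 3, Lhx3 is also counted in the motor neuron list below. Olig1, the neighbour and partner of Olig2 in oligodendrocyte development, had 35.4 to 1167 (median 440.1) in pMN and 0 in all 12 p0-1 libraries (log2 change 8.61, SE 0.67, limma adjusted p = 1.78e-09). Set against a floor of 3 reads per library, its mean was at least 179-fold higher in pMN. Lhx3, a LIM homeodomain factor of motor neurons and V2 interneurons, had 67.6 to 1579 (median 341) against 0 to 30.4 (median 0), with 10 of the p0-1 libraries at 0 (log2 change 7.83, SE 0.75, limma adjusted p = 5.98e-08). Neurog2, the proneural factor that acts with Olig2 in motor neuron production, had 305 to 2391 (median 1134) against 0 to 285 (median 109.8) and no overlap (log2 change 4.11, SE 0.65, limma adjusted p = 2.20e-04). Within p0-1 it was low at 0 nM SAG (median 46.0) and higher at 10 nM (median 201). The other two of the 7, Nkx6-2 (3.95, adjusted p = 0.0593) and Lhx4 (3.76, adjusted p = 0.0545), did not pass the limma test.

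The list of p0 and p1 progenitor factors, which also holds the dorsal gene Pax3, went the other way. Of its 13 tested genes 7 were called lower in pMN and none higher, with a list median of -2.88. Of the 7, Pax6 belongs to the sorting proteins. Dbx1, the homeodomain factor of p0, had the most negative change of all genes tested. Its values were 0 to 288 (median 0) in pMN and 917 to 3475 (median 2259.6) in p0-1 (log2 change -9.73, SE 0.87, limma adjusted p = 2.68e-08). In pMN 9 of 11 libraries held no Dbx1 read, and the 2 exceptions were the first (88.8) and second (288) libraries at 100 nM SAG on day 5. Prdm12, a zinc finger factor required for V1 interneurons, was at 0 in all 11 pMN libraries and had 0 to 997 (median 192) in p0-1 (log2 change -6.72, SE 1.02, limma adjusted p = 1.33e-04), a mean at least 112-fold above the floor of 3 reads. Prdm13 was also at 0 in every pMN library, with 0 to 487 (median 144) in p0-1 (log2 change -5.74, SE 0.98, limma adjusted p = 5.76e-04), at least 51.2-fold. Its p0-1 libraries had 37.0 to 487 at 0 nM SAG and 0 to 153 at 10 nM. Prdm16, a regulator of neural progenitors, was at 0 in 10 of 11 pMN libraries and had 0 to 439 (median 85.5) in p0-1 (log2 change -5.34, SE 0.96, limma adjusted p = 0.00111). In pMN the reads of these Prdm genes were at or near 0, whereas the Iroquois genes differed by degree. Irx3, which opposes Olig2 at the pMN border, had 289 to 1637 (median 774) in pMN and 1516 to 3362 (median 2322) in p0-1 (log2 change -1.68, SE 0.19, limma adjusted p = 1.35e-06). Irx5 had 230.4 to 829 (median 419) and 714 to 1774 (median 1509) (log2 change -1.59, SE 0.21, limma adjusted p = 1.51e-05), and both genes had over 200 normalised reads in every pMN library.

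Not all genes of the list followed. Dbx2, the paralogue of Dbx1 with a wider domain, had 0 to 27.2 (median 0) in pMN and 0 to 312 (median 21.5) in p0-1 and was not called (adjusted p = 0.217). The p0-1 libraries at 10 nM SAG on day 6 had 141 to 312, and all other p0-1 libraries had at most 122. Pax3, a Pax gene of the dorsal neural tube, divided the p0-1 libraries by SAG. It had 133 to 762 (median 307) in the 6 libraries at 0 nM SAG and 0 in all 6 at 10 nM. It was the only gene that limma called between p0-1 at 0 and 10 nM SAG. Its relative Pax7 had 0 to 116 (median 71.0) and 0 to 68.6 (median 0.569), which overlap. Neither gene was called against pMN. The 6 p0-1 libraries at 0 nM SAG all held RNA of the dorsal gene Pax3. Whether cells other than p0 and p1 entered the gate was not tested. Sp8, which is expressed across intermediate progenitors, had 607 to 3577 (median 1985) in pMN and 1353 to 3170.1 (median 1954) in p0-1 (log2 change -0.15, adjusted p = 0.864). Of 35 alternative analyses, the model over all 65 libraries ended the calls of Pax6 (adjusted p = 0.0925) and Irx5 (adjusted p = 0.0141). The count of Pax6 could be affected in either direction by Elp4, whose exons overlap it on the opposite strand, since use of strand is not stated.

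**Figure D2:**
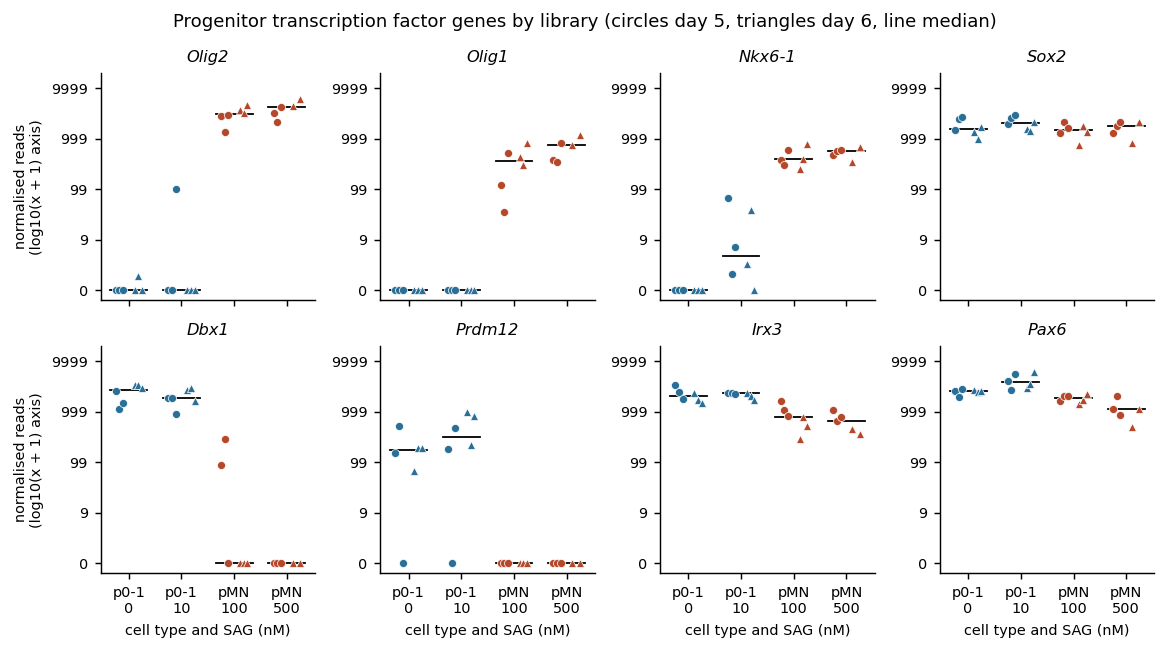
Normalised reads of 8 progenitor factor genes in each of the 23 libraries, on a log10(x + 1) axis, by cell type and SAG concentration (circles day 5, triangles day 6, line the median of the column). Olig2, Olig1 and Nkx6-1 separate the types, Dbx1 is at 0 in 9 of 11 pMN libraries and Prdm12 in all 11, Irx3 and Pax6 differ by degree, and Sox2 overlaps.

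The promoters of the genes with the highest and lowest change are shown for reference, taken from RefSeq on GRCm38.p6, which has the same coordinates as the mm10 build of the files. Each runs from 250 bases before the annotated start to 50 bases after it, and capitals mark the bases from the start onward. Olig2 lies at chr16:91225300-91225599, plus strand and Dbx1 at chr7:49636786-49637085, minus strand.
Olig2: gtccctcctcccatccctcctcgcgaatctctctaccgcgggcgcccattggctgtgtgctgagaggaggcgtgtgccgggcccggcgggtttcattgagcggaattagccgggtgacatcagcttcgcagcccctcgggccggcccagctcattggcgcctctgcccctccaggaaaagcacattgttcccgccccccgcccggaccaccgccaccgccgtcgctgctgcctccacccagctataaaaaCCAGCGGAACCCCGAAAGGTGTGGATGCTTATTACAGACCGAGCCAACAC
Dbx1: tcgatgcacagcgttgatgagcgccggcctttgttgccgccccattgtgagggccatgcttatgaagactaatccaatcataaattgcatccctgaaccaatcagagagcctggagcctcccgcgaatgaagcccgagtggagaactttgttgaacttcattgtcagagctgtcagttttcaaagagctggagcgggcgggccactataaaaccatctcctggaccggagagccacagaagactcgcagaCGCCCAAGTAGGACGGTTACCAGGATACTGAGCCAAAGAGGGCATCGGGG
Olig2 (chromosome 16, 91225550 to 91228677) and Olig1 (chromosome 16, 91269769 to 91271939) are separated by 41092 bases. They were 1 of 8 pairs of called genes within 100 kb of each other, and in each of the 8 pairs both genes were higher in pMN. Of all 111 called genes 75 were higher, and such pairs were not counted over all genes tested. The 8 pairs are not independent, since a trio holds several and others, such as Srrm4 and Srrm4os, overlap. Chat and Slc18a3 overlap as a nested pair on chromosome 14. Kif19a and Btbd17, 94 bases apart on chromosome 11, formed a trio with Ttyh2.

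Genes of motor neurons themselves were present in these SOX2-selected pMN cells. Of 16 tested genes of the motor neuron list, 5 were called higher in pMN and none lower, and 15 of 16 changes were positive (list median 3.69). Over all genes tested 0.549% were called higher, and 6972 of 13662 changes were positive. Isl1, the LIM homeodomain factor of postmitotic motor neurons, had 257 to 2239 (median 888) in pMN and 0 to 127 (median 0) in p0-1, where it was at 0 in 8 of 12 libraries (log2 change 8.66, SE 0.79, limma adjusted p = 2.88e-08). Slc18a3, the vesicular acetylcholine transporter, had 2.42 to 1539 (median 364) against 0 to 43.2 (median 0), with 11 of 12 p0-1 libraries at 0 (log2 change 7.55, SE 0.91, limma adjusted p = 3.68e-06). Chat, which makes acetylcholine, had 0 to 409.8 (median 96.0) against 0 to 3.42 (median 0) (log2 change 4.82, SE 0.85, limma adjusted p = 9.52e-04). Slc18a3 (chromosome 14, 32462437 to 32464850) lies within Chat (chromosome 14, 32408203 to 32465909), and both are cholinergic genes. Cntn2, a contactin of growing axons, had 0.994 to 2759 (median 561) against 0 to 165 (median 2.5) (log2 change 5.60, SE 0.97, limma adjusted p = 6.96e-04). Isl1 and Lhx3 did not overlap between the types. Slc18a3, Chat and Cntn2 did, and each had a pMN library with fewer than 3 normalised reads.

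Day by day, the change of Slc18a3 was 5.82 on day 5 and 9.55 on day 6. For Chat it was 2.82 and 7.08. Neither difference between days passed the test (limma adjusted p = 0.982 and 0.982). Mnx1, a homeodomain factor of motor neurons, had 0 to 363 (median 67.3) against 0 to 20.5 (median 0), with an adjusted p of 0.0119 just above the threshold. Isl2 (3.62, adjusted p = 0.0334), Ret (3.85, adjusted p = 0.0209) and Onecut1 (2.95, adjusted p = 0.0259) also fell short of it. Genes of V0 and V1 interneurons, the neurons of p0 and p1, were scarce in both types: 2 of 14 passed the minimum mean and neither was called. Their summed level was 0.994 to 287 in pMN and 2.74 to 475 in p0-1, against 2303 to 12679 and 699.8 to 1897 for the motor neuron list.

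Some genes of neuronal commitment were higher in pMN. Among 17 tested proneural and commitment genes 3 were called higher and none lower (list median 1.77), namely Neurog2, Gadd45g and Btg2. Gadd45g, a stress and growth arrest gene switched on as progenitors leave the cycle, had 4351 to 10682 (median 5948) in pMN and 559.6 to 3707 (median 2236) in p0-1, with no overlap (log2 change 1.70, SE 0.21, limma adjusted p = 6.05e-06). Btg2, an antiproliferative marker of neurogenic divisions, had 715 to 3245 (median 2015) against 340.4 to 1146 (median 837) (log2 change 1.33, SE 0.25, limma adjusted p = 0.00175), and the model over 65 libraries did not call it (adjusted p = 0.308).

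Of 18 pan-neuronal genes 2 were called, both higher in pMN, with a list median of 0.43. Elavl4, a neuronal RNA-binding protein, had 451 to 3446 (median 1067) against 28.3 to 1005 (median 222) (log2 change 2.66, SE 0.44, limma adjusted p = 4.27e-04). Rbfox3, a neuronal splicing factor, had 134 to 1203 (median 297) against 9.22 to 278 (median 56.9) (log2 change 2.45, SE 0.49, limma adjusted p = 0.00369). It was not called without replicate 3 of pMN at 100 nM or at 500 nM on day 6, or without the 3 libraries that held Dbx1 or Olig2 RNA of the other type (adjusted p up to 0.0154 over all alternatives). Tubb3, neuronal tubulin, had 0 to 891 (median 462) and 10.9 to 1028 (median 313) and a change of 0.15 (adjusted p = 0.971). Stmn2 had 0 to 348 (median 138) and 0 to 201 (median 73.9) (0.48, adjusted p = 0.896). The summed level of the 18 genes overlapped between the types, 3073 to 12486 in pMN and 1610.4 to 7848 in p0-1. The part of neuronal RNA in the difference of the motor neuron genes was not tested.

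**Figure D3:**
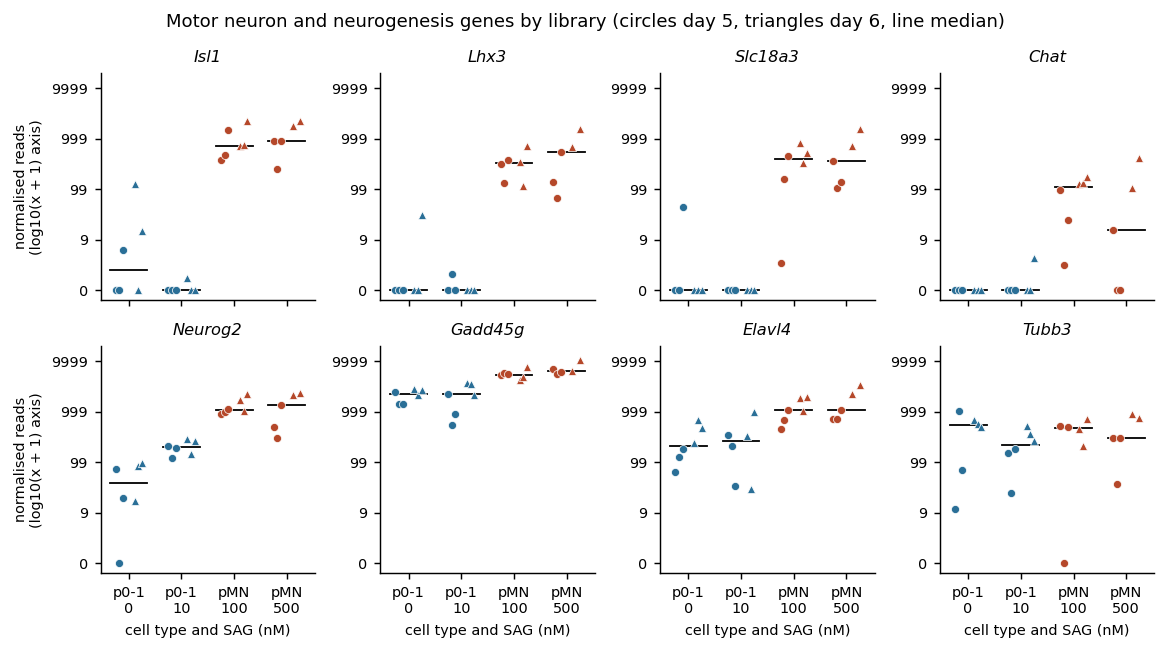
Normalised reads of 8 motor neuron and neurogenesis genes per library on a log10(x + 1) axis, by cell type and SAG concentration (circles day 5, triangles day 6, line the median of the column). Isl1, Lhx3, Neurog2 and Gadd45g do not overlap between pMN and p0-1, whereas Tubb3 does.

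The Shh pathway differed by role. Of its receptors and feedback genes, Ptch1 and Hhip were called higher in pMN. Ptch1, the Shh receptor and a target of the pathway, had 3144 to 5735 (median 4679) in pMN and 253 to 2305 (median 889) in p0-1 (log2 change 2.41, SE 0.23, limma adjusted p = 5.98e-08). Hhip, a target that binds Shh and limits it, had 165 to 667 (median 574) against 0 to 335 (median 62.5) (log2 change 4.44, SE 0.95, limma adjusted p = 0.00774). Ptch1 did not overlap between the types, and Hhip did. Smo, which encodes Smoothened, had 1476 to 3606 (median 2412) and 1038 to 2822 (median 1929.7) and was not called (log2 change 0.32, adjusted p = 0.46). With edgeR Hhip was not called (adjusted p = 0.103), and it lost the call in 20 of the 35 alternatives.

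Among the 14 effectors 1 was called in each direction, and both are GLI factors. Gli1, an activator induced by the pathway, had 945 to 2079.6 (median 1275) against 0 to 296 (median 73.8), no overlap (log2 change 4.91, SE 0.68, limma adjusted p = 2.83e-05). In p0-1 its median was 42.9 at 0 nM SAG and 162 at 10 nM, and in pMN 1317 at 100 nM and 1275 at 500 nM. Gli3, the main repressor form, was lower in pMN, with 357 to 968 (median 614) against 887 to 3028 (median 1927) (log2 change -1.60, SE 0.22, limma adjusted p = 2.47e-05). Gli2 overlapped between the types (1.07, adjusted p = 0.467). Of the 11 tested coreceptors and genes of ligand release, 2 were called, both lower in pMN, and 9 of 11 changes were negative (list median -1.25). Gas1, a coreceptor that the pathway represses, had 279 to 1463 (median 843) in pMN and 1155 to 3182 (median 2222) in p0-1 (log2 change -1.41, SE 0.23, limma adjusted p = 3.50e-04). Scube2, which helps release lipid-modified Shh, was at 0 in 5 pMN libraries and had 0 to 387 (median 2.14) there against 118 to 1327 (median 535) in p0-1 (log2 change -6.17, SE 0.95, limma adjusted p = 1.42e-04). Its call was lost with edgeR (adjusted p = 0.0295). The coreceptors Boc (-1.54, adjusted p = 0.029) and Cdon (-3.21, adjusted p = 0.0545) and the receptor Lrp2 (-1.61, adjusted p = 0.0164) did not pass the threshold. Gli1 shares exon bases with Arhgap9 on the opposite strand.

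**Figure D4:**
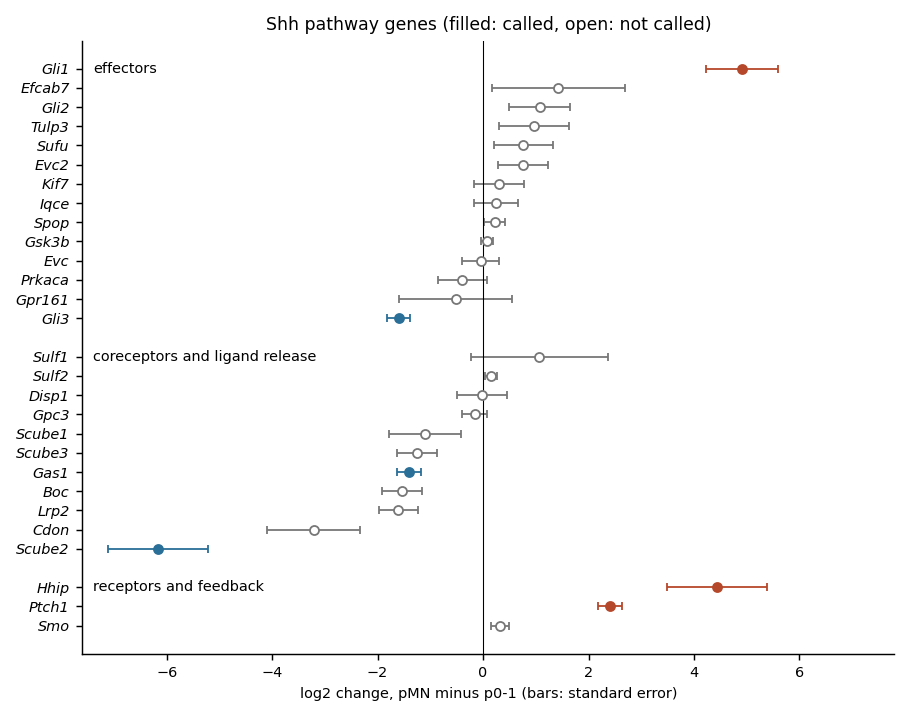
Log2 change (pMN minus p0-1) with its standard error for 28 tested genes of the Shh pathway lists, grouped by role. Filled points were called: Ptch1, Hhip and Gli1 higher in pMN and Gli3, Gas1 and Scube2 lower, while Smo lies near 0.

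Nkx2-9, a homeodomain factor of the most ventral progenitors, was the only called gene among 5 tested genes of p3, V3 neurons and floor plate. It had 0 to 1183 (median 414) in pMN and 0 in all 12 p0-1 libraries (log2 change 7.85, SE 0.92, limma adjusted p = 2.20e-06), a mean at least 159-fold higher than the floor. Its level in p3 libraries of the same days was 505 to 2394 (median 1135). Foxa2, the floor plate factor, had 0 to 368 (median 88.8) in pMN and 0 to 138 (median 0) in p0-1 (adjusted p = 0.297). Neither the 6 tested genes of V2 neurons and p2 nor the 4 tested genes of the dorsal list gave a call. Pax3 was not in that list and divided the p0-1 libraries by SAG, as given above.

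Notch signalling, through which cells that enter differentiation hold back their neighbours, had 4 calls among 13 genes. Dll3, a ligand that acts inside the cell, had 901 to 7337 (median 2249) in pMN and 38.2 to 1978 (median 1023) in p0-1 (log2 change 1.82, SE 0.36, limma adjusted p = 0.00386). Mfng, a Fringe glycosyltransferase that modifies Notch receptors, had 201 to 2814 (median 799) against 0 to 632 (median 159) (log2 change 2.87, SE 0.60, limma adjusted p = 0.00626). Notch1 itself had 1279 to 5883 (median 1706) against 299 to 1468 (median 727) (log2 change 1.65, SE 0.21, limma adjusted p = 7.98e-06). The ligand Jag1 went the other way, with 48.7 to 1183 (median 614) in pMN and 551 to 7181 (median 3304) in p0-1 (log2 change -2.16, SE 0.45, limma adjusted p = 0.00563), and within p0-1 its median was 1388 at 0 nM SAG and 4365 at 10 nM. The list median was 0.65. The ligand Dll1 was not called (1.02, adjusted p = 0.0637). Of the 10 tested Hes, Hey and Id genes, which carry the progenitor response to Notch and BMP signals, Id3 was called, lower in pMN. It had 752 to 1948 (median 1441) against 1888 to 5280.4 (median 2758) (log2 change -1.17, SE 0.19, limma adjusted p = 2.65e-04). Hes5 was high in both types, with 6987 to 10681 (median 9699) and 1227 to 10028 (median 5472) (0.85, adjusted p = 0.0436). Of the 35 alternatives, Mfng lost its call in 13, Jag1 in 10 and Dll3 in 3 (adjusted p up to 0.0259, 0.0238 and 0.0242).

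Of 31 cell cycle genes 1 was called, and 15 of the 31 changes were positive. That was Cdk6, a kinase of the G1 phase, with 256 to 869 (median 626) in pMN and 691 to 2835 (median 1284) in p0-1 (log2 change -1.26, SE 0.22, limma adjusted p = 6.58e-04). In the list of SoxB1 and pan-progenitor genes 3 of 17 were called, where 0.812% of all genes were. Besides Notch1 and the sorting gene Pax6 this was Ptn, a secreted growth factor of radial progenitors, with 114 to 920.1 (median 352) against 298 to 4558 (median 2082) (log2 change -2.19, SE 0.33, limma adjusted p = 1.11e-04). Ptn lost its call in the model over 65 libraries (adjusted p = 0.0642). Among 11 tested gliogenesis genes Sox8, a SoxE factor, was called besides Olig1 and Olig2. It had 29.7 to 117 (median 87.9) against 0 to 113 (median 0) (log2 change 4.71, SE 0.96, limma adjusted p = 0.0047), and 8 of 35 alternatives did not call it, edgeR (adjusted p = 0.645) and DESeq2 (adjusted p = 0.344) among them.

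Among signalling lists the calls were few. For Wnt 3 of 33 tested genes were called. Frzb, a secreted Wnt antagonist, was at 0 in 10 of 11 pMN libraries and had 0 to 865 (median 252) in p0-1 (log2 change -6.31, SE 1.16, limma adjusted p = 0.00155), and it lost the call with edgeR (adjusted p = 0.0808). The Wnt receptor Fzd9 had 509 to 1986 (median 1272) in pMN and 183 to 999.9 (median 364) in p0-1 (log2 change 1.45, SE 0.26, limma adjusted p = 0.00135). Tcf7l2, a nuclear effector of Wnt, had 1229.7 to 2965 (median 1851) against 331 to 2161 (median 914) (log2 change 1.05, SE 0.20, limma adjusted p = 0.00175). Of 21 tested BMP genes Id3 was the only call. No gene of the retinoic acid (14 tested), FGF (22), cadherin (12) or Hox (20) lists was called, with list medians of -0.09, 0.14, -0.73 and -0.46.

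In the axon guidance list 2 of 40 tested genes were called, Cntn2 and Slit3, and the list median was -0.21. Slit3, a secreted ligand of Robo receptors, had 857 to 8873 (median 1377) in pMN and 18.2 to 273 (median 123) in p0-1, without overlap (log2 change 4.18, SE 0.45, limma adjusted p = 5.36e-07). Within pMN its median was 1113 at 100 nM and 1422 at 500 nM SAG. On the same strand Slit3 (chromosome 11, 35121456 to 35708507) holds in an intron the miRNA gene Mir218-2, and miR-218 is known as a miRNA of motor neurons. The mature RNA itself was not measured here, only its host. Its sequence is shown from RefSeq (GRCm38.p6, chr11:35616840-35616860, plus strand), with the seed, bases 2 to 8, in capitals.
miR-218-5p: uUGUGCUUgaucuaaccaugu
A further host of a neuronal miRNA, Mir124a-1hg, was chosen after its values were seen. It had 156 to 1099.7 (median 329.8) in pMN and 0 to 228 (median 12.2) in p0-1 (log2 change 4.86, SE 0.81, limma adjusted p = 4.07e-04), and edgeR did not call it (adjusted p = 0.0136). Its exons overlap the miRNA genes Mir124a-1 and Mir3078 and, on the opposite strand, Gm51272.

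Outside the lists, 9 genes with a mean of at least 100 were called higher in pMN without any overlap. Grrp1 had 539.8 to 1475 (median 1072) in pMN and 0 to 96.3 (median 0) in p0-1 (log2 change 8.71, SE 0.79, limma adjusted p = 2.68e-08). Pappa, a protease that cleaves insulin-like growth factor binding proteins, had 722 to 1658 (median 1208) against 0 to 297 (median 0.91) (log2 change 7.62, SE 0.86, limma adjusted p = 1.35e-06). Efcc1 had 252 to 1423 (median 557) against 0 to 28.5 (median 1.44) (log2 change 7.46, SE 0.67, limma adjusted p = 2.68e-08). The changes of these 3 genes were larger than that of Nkx6-1. Cacna2d1, a calcium channel subunit, had 4.97 to 806 (median 158) against 0 to 3.03 (median 0) (log2 change 6.78, SE 0.79, limma adjusted p = 2.25e-06). Btbd17 had 5798 to 17159 (median 7718) against 489 to 2924 (median 1071) (log2 change 2.94, SE 0.21, limma adjusted p = 2.04e-10). Map1b and Crmp1, which encode proteins of the neuronal cytoskeleton, changed by 1.26 and 1.48, and Crmp1 was not called in the model over 65 libraries (adjusted p = 0.0514). Map1b had 10279.6 to 22153 (median 14974) against 4238 to 10274 (median 6417), the smallest change among the 27 genes without overlap. Adamtsl1 (5.33) and Olfml3 (5.20), both of the extracellular matrix, completed the set and lost their calls with edgeR (adjusted p = 0.0778 and 0.0955).

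On the lower side 6 genes outside the lists met the same rule. Foxe3, a forkhead factor, had 0 to 93.0 (median 44.8) in pMN and 165 to 903 (median 509) in p0-1 (log2 change -4.33, SE 0.64, limma adjusted p = 8.87e-05). Gja1, the gap junction protein connexin 43 of radial glial cells, had 1784 to 6155 (median 5173) against 8186 to 14955 (median 12133) (log2 change -1.44, SE 0.16, limma adjusted p = 1.50e-06). Agtr1a, a receptor for angiotensin II, had 492 to 1722 (median 1130.3) against 1834 to 4263 (median 2755) (log2 change -1.45, SE 0.20, limma adjusted p = 2.47e-05). Gja1 was the most abundant of the genes lower in pMN. Fndc5 changed by -1.60, Phlda1 by -2.69 and Nebl, an actin-binding protein, by -4.83, the last not called with edgeR (adjusted p = 0.0124). Fat4, a giant protocadherin, was chosen after its values were seen. It had 0 to 181 (median 6.95) in pMN and 31.9 to 2387 (median 1178) in p0-1 (log2 change -6.38, SE 0.95, limma adjusted p = 9.16e-05), a larger change than these 6, although its libraries overlapped.

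The comparison was then divided by day and by SAG. Fitted within each day, 45 genes were called on day 5 (0.329%) and 61 on day 6 (0.446%). All 75 genes higher in pMN had a positive change on both days and all 36 lower genes a negative one, which the choice of genes fixes in large part, since the same libraries chose them. Dbx1 changed by -8.17 on day 5 and -11.45 on day 6, and Pappa by 9.78 and 5.15. Tested as a difference between days, limma called 0 genes and edgeR 0, with 611 at an unadjusted p below 0.05, whereas DESeq2 called 214. Paired by the nearer concentrations, pMN at 100 nM against p0-1 at 10 nM, 31 genes were called (0.227%). Paired by the farther ones, 500 nM against 0 nM, 81 were called (0.593%). The difference between the pairings was again called by limma and edgeR for 0 genes (559 at an unadjusted p below 0.05) and by DESeq2 for 204. Among the 75 higher genes 59 had the larger change in the farther pairing, and among the 36 lower genes 25. Over all genes 47.5% of the differences between pairings were positive and 52.5% negative. Nkx6-1 changed by 5.89 in the nearer and 9.01 in the farther pairing, and Isl1 by 9.56 and 7.83.

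Day 4 gave libraries that the comparison had not used, 4 of pMN and 5 of p0-1. There limma called 3 of 13538 genes (0.0222%), Olig2, Ptch1 and Timp3, all higher in pMN. The calls fell to 0 with the replicate number as a block, with a minimum mean of 100, and when any 1 of 5 of the 9 libraries was left out. Olig2 had 447 to 1801 in pMN and 0 in all p0-1 libraries on day 4 (log2 change 9.98, SE 1.20, adjusted p = 0.00626). Ptch1 had 4054 to 8494 against 349 to 1438 (log2 change 3.24, SE 0.40, adjusted p = 0.00626). Of the 75 genes higher in pMN on days 5 and 6, 61 could be tested on day 4, 47 of these had a positive change and 29 an unadjusted p below 0.05 (median 0.86). Of the 36 lower genes 33 could be tested, 31 had a negative change and 17 an unadjusted p below 0.05 (median -1.06). Over all 13538 genes tested on day 4, 42.2% of changes were positive, 1010 genes had an unadjusted p below 0.05, and the median was -0.13. Among motor neuron and commitment genes, Isl1, Lhx3 and Chat were below the minimum mean on day 4, and Gadd45g changed by 0.73 (adjusted p = 0.743). Nkx2-9 (8.95), Scube2 (-7.43) and Gli1 (6.09) also had an unadjusted p below 0.05 without passing the test (adjusted p = 0.0166, 0.139 and 0.401).

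The p2 progenitors, which lie between pMN and p0-1, were sorted at 10 nM SAG, as some p0-1 were, and at 100 nM, as some pMN were. Tests of p2 against p0-1 at 10 nM and against pMN at 100 nM, given below, thus hold SAG constant. For each of the 111 genes the mean log2 value in p2 was also placed on a scale on which p0-1 is 0% and pMN 100%. The ends pool 0 and 10 nM for p0-1 and 100 and 500 nM for pMN, so positions do not hold SAG constant. For genes higher in pMN the median position of p2 was 54.6% at 10 nM and 64.4% at 100 nM (6 libraries each), and 33 and 23 of the 75 genes were nearer to p0-1. For genes lower in pMN the median position was 40.0% at 10 nM and 73.5% at 100 nM, and 25 and 9 of the 36 genes were nearer to p0-1. By their medians, the genes of both directions lay in between at both concentrations. The ends of the scale come from the libraries that chose the genes. A median in between thus does not by itself show that p2 is intermediate. In p3, which lies ventral to pMN, the higher genes also had a median position of 56.2%.

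Single genes of p2 differed in where they lay. Olig2 had 0 to 162 (median 102) at 10 nM and 130.3 to 1452 (median 659.8) at 100 nM. Nkx6-1 had 134 to 499 (median 309) and 269.8 to 702 (median 332), ranges that overlap with pMN. Isl1 had 0 to 131 (median 4.12) and 0 to 116 (median 4.34), all below the lowest pMN library. Dbx1 had 1.06 to 429.9 (median 141) at 10 nM and 0 to 2.77 (median 0.394) at 100 nM. Irx3 had 1273 to 2749.6 (median 1818) and 456 to 2058 (median 1260.4), and Gadd45g had 2674 to 7737 (median 6714) and 3244 to 6381 (median 4088). Within p2 the median of Olig2 was higher and that of Dbx1 lower at 100 than at 10 nM. Limma called 0 genes between p2 at 100 and 10 nM (819 at an unadjusted p below 0.05, 0 with edgeR, 20 with DESeq2). Between pMN and p2 at 100 nM limma called 0 genes (711 at an unadjusted p below 0.05, 0 with edgeR, 9 with DESeq2). Between p2 and p0-1 at 10 nM limma called 1 gene, the noncoding RNA Miat, which is not among the 111. Over all genes the median SE was 0.74, 0.72 and 0.57 in these tests of 12 libraries each, in that order. It was 0.49 in the main fit of 23 libraries, so few or no calls do not show the compared groups to be alike.

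The tests within p2 used libraries other than those that chose the 111 genes. The study sorted several types from each SAG condition, so p2 libraries may share cultures with pMN or p0-1 libraries of the same concentration. With 100 against 10 nM SAG, 47 of 72 tested genes of the higher set had a positive change (median 0.25), and 30 of 34 of the lower set a negative one (median -0.67), where 41.0% of all genes had a positive change and the median was -0.15. The other comparisons share libraries with the main one. Between pMN and p2 at 100 nM the higher set had a median of 0.94, with 71 of 75 positive, and the lower set -0.49, with 26 of 32 negative, where 59.6% of all genes had a positive change and the median was 0.15. Between p2 and p0-1 at 10 nM the medians were 1.40, with 64 of 67 positive, and -0.51, with 33 of 36 negative, where 51.8% of all genes had a positive change and the median was 0.02.

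**Figure D5:**
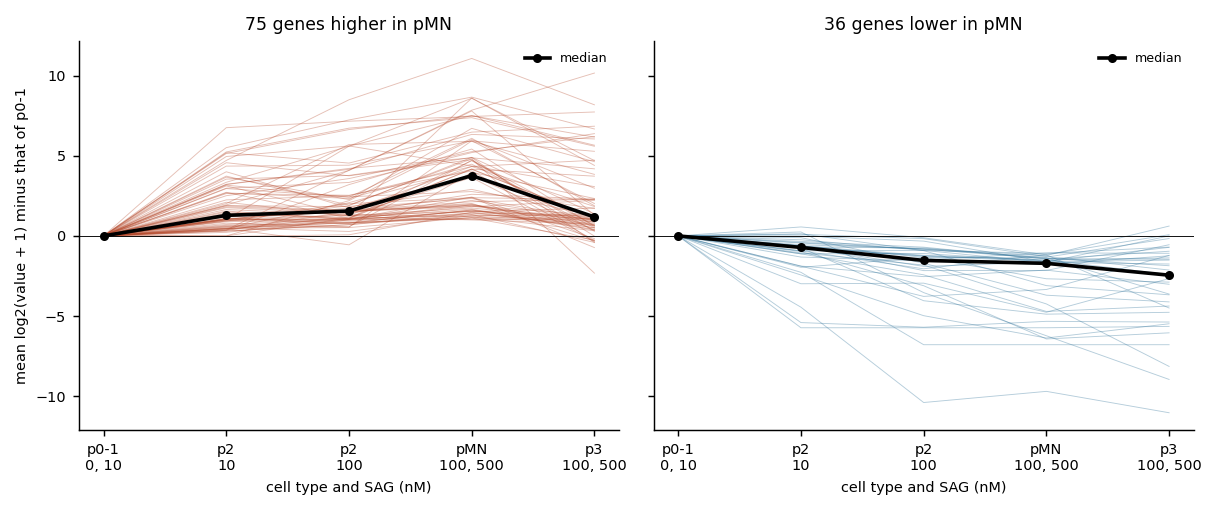
Mean log2(value + 1) minus that of p0-1 for the 75 genes higher and the 36 lower in pMN, in p0-1, p2 at 10 and at 100 nM SAG, pMN and p3 on days 5 and 6. Thin lines are genes and the thick line is their median, and p0-1 and pMN were the types that chose the genes. The medians of p2 lie between the 2 types.

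In p3, the next type ventral to pMN and sorted from the same SAG concentrations (11 libraries), the genes lower in pMN lay at a median position of 99.2%, so that 18 of 36 were as low as in pMN or lower. The genes higher in pMN lay at 56.2%, with a spread from 25.7% (lower quartile) to 84.0% (upper quartile), and 10 of the 75 were at or below the p0-1 level. Gli1 had 202 to 1954 (median 969.9) and Ptch1 2801 to 5452 (median 4238) in p3. Neurog2 had 0 to 550.1 (median 86.1), a range that overlaps with pMN. Its mean log2 value in p3 was 5.83, near that of p0-1 (6.11) and below that of pMN (10.17). Pax6 had 10.2 to 717 (median 157) in p3.

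Promoters were available for 55 of the 75 higher and 28 of the 36 lower genes and were searched on both strands for 4 short motifs. The E-box CAGCTG, a site type of proneural factors, was in 12 of the 55 (21.8%) and 2 of the 28 (7.14%), against 17.7% of the promoters of all 10748 tested genes. The E-box CATATG was in none of either set, against 2.04% of all. The homeodomain motif TAATTA was in 2 of the 55 (3.64%) and none of the 28, against 3.09%. The GLI motif TGGGTGGTC was in none of either set, against 0.261%. The counts are small, and they describe only the 300 bases around each start. To show where the E-box falls, 3 of the promoters that hold it are printed with CAGCTG in capitals, for Isl1 and Gadd45g, both higher in pMN, and Jag1, lower in pMN. They lie at chr13:116309639-116309938, minus strand, at chr13:51846425-51846724, plus strand and at chr2:137116471-137116770, minus strand. The match begins 103 bases before the start of Isl1, 55 before that of Gadd45g and 82 before that of Jag1.
Isl1: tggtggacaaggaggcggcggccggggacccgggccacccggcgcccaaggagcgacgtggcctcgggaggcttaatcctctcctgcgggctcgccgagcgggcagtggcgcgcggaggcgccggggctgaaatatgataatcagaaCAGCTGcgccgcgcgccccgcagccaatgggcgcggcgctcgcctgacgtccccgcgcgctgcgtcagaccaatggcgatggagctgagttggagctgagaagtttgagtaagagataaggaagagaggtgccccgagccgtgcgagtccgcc
Gadd45g: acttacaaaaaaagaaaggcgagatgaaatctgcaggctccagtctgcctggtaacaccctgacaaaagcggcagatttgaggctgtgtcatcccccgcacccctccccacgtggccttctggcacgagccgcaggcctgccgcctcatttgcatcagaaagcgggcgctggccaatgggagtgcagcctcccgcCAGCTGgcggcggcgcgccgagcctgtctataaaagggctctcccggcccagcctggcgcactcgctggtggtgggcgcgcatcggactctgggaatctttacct
Jag1: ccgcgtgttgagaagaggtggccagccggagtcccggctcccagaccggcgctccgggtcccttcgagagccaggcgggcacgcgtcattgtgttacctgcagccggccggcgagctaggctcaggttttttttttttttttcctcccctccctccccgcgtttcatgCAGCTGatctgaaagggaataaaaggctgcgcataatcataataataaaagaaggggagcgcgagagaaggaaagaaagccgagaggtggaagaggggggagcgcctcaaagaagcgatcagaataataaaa

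Markers of cells that do not belong in either gate were also read. T, the NMP factor Brachyury, and Sox10, a neural crest factor, were at 0 in all 23 libraries, and none of the 4 tested NMP and mesoderm, 2 neural crest, 3 pluripotency, 4 endoderm and 4 fibroblast genes was called. The summed level of the fibroblast list was 20.9 to 379 in pMN and 4.6 to 659 in p0-1. For neural crest it was 0.994 to 137 and 4.6 to 319. The endoderm list had 131 to 817 and 55.9 to 603, and the NMP and mesoderm list had 0 to 596 and 106 to 308. The pluripotency list had 0.772 to 103 and 0 to 160.3. For each of these lists the ranges overlapped, and their part in the differences between the types was not tested.

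Single libraries held RNA of the other type. Replicates 1 and 2 of pMN at 100 nM SAG on day 5 had over 50 normalised reads of Dbx1, and replicate 3 of p0-1 at 10 nM on day 5 had over 50 of Olig2. Without these 3 libraries 99 genes were called, 66 higher and 33 lower, and 89 of them were among the 111. Over the 35 alternatives 62 of the 111 genes kept their call in every fit that gave them an adjusted p. The other 49 lost it in at least 1, among them 26 with edgeR and 4 with DESeq2. A fit that gave a gene no adjusted p, as DESeq2 did for 2 genes, was not counted as a loss. None of the 111 changed sign. Of the called genes 10 share exon bases with another gene, mostly on the opposite strand.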

How the data were processed

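CaTS-RNA-seq libraries of sorted progenitors were analysed from the deposited gene table. The authors had aligned reads with STAR to mm10 with ERCC sequences added, counted them with featureCounts over refGene without duplicates, and removed libraries that failed quality control. The deposited signal is reads divided by a size factor per library. Steps of 0.758 to 1.14 per read in the 23 libraries gave whole reads for 100.0% of the 834400 values above 0 (tolerance 0.001 reads), and these were used for edgeR 4.0.16 and DESeq2 1.42.0. Of 25239 genes, 7018 were at 0 in all 23 libraries.

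Log2(value + 1) was fitted with limma 3.58.1 (R 4.3.3) with an intensity trend over genes whose mean in the fitted libraries reached 10 (13662 for pMN against p0-1), with cell type and day as terms. Differences between days and SAG pairings used 8 group means. Adjusted p-values are Benjamini-Hochberg values of this limma fit unless another tool is named. In simulated counts for 13662 genes, limma recovered 66 of 100 genes changed 4-fold and 92 of 100 changed 16-fold, with 1 false call. The changed genes were drawn from those with a mean of at least 100, and the counts held no day or replicate effect. Recovery of weaker genes was thus not simulated. The study's methods state no RNA test, so thresholds it gives for accessibility were used, without its minimum mean. Named genes were those of the sorting proteins, called or defining genes of the domain, neuron and Shh lists, up to 4 called genes of each other list, and outside the lists up to 12 per direction with a mean of at least 100 and no overlap. The libraries, gene lists and tests were chosen with earlier results of these data known. Some genes of the lists are not reported here. Limits drawn from 3 reads cover counting error only.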

Additional observations from a re-analysis of the deposited data

How the results depend on the processing

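Of the 35 alternatives to the comparison of pMN with p0-1, DESeq2 moved the 111 calls most, to 216 (122 higher and 94 lower), which included 105 of the 111. The others gave 91 (edgeR, 58 and 33), 134 (pseudocount 10), 102 (no filter), 103 (mean of at least 100), 134 (25 groups over 65 libraries, 92 of the 111), 113 (8 group means), 146 (array weights), 126 (quantile normalisation), 112 (TMM), 99 without the 3 libraries named in the report (chosen after seeing the data), and 101 to 118 without 1 library. The 55 called genes that are named kept their direction and call in 1831 of 1921 fits and lost the call in 90. DESeq2 also gave 394 calls on day 5, 399 on day 6, 310 for the nearer and 507 for the farther SAG pairing, against 45, 61, 31 and 81 with limma. For the difference between days it gave 214, and without 1 library limma gave 0 to 10, the highest without pMN replicate 1 at 500 nM on day 6 and 1 without p0-1 replicate 3 at 0 nM on day 5. For the difference between SAG pairings DESeq2 gave 204, and without 1 library limma gave 0 to 4, the highest without the same pMN library. On day 4 the 3 calls became 0 with a mean of at least 100, 0 with the replicate block, 70 with DESeq2, and 0 to 4 without 1 library. They fell to 0 without p0-1 replicate 2 at 0 nM or 3 at 10 nM, pMN replicate 3 at 100 nM, or pMN replicate 2 or 3 at 500 nM, and to 1 without p0-1 replicate 3 at 0 nM. DESeq2 called 20 genes within p2, 9 between pMN and p2, and 36 between p2 and p0-1. The last comparison had 0 calls with edgeR and 0 to 2 without 1 library: 0 without p0-1 replicate 1 or p2 replicate 2 of day 5, and 2 without p0-1 replicate 2 of day 5 or p2 replicate 3 of day 6. The cause of these differences between tools was not tested.

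The replicate number as a block gave 121 calls (80 higher and 41 lower), 109 of them among the 111. Deviations of same-numbered libraries from their group means correlated weakly, with a median r of 0.036 over 77 pairs, 3 of them over 0.1. Pairs with different numbers had a median r of -0.016 (154 pairs). Each of the 23 libraries correlated best on average with its own number, so same-numbered libraries shared some of their deviation. The main fit had no term for this number, and its p-values treat the 23 libraries as independent. Depth and replicate spread limit small changes: over all genes the SE had a median of 0.49 on the log2 scale.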
